A study of Mus musculus with 16 samples.

Results

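Livers lacking Arid1a after tamoxifen (Arid1a KO, 4 mice) were compared with the livers of 4 WT mice, all given DMSO as vehicle, to describe the effect of genotype that 9 and 30 days after the injection have in common. These are the 8 vehicle-treated WT and Arid1a KO livers among the 16 samples of the series, taken by genotype, treatment and time from the labels, with 2 replicates of each genotype at each time. The effect was estimated as 1 difference between genotypes with time as a block. The replicates are called biological in the study's description. The WT columns carry the prefix ALB. The sources used here do not give the promoter that drives the recombinase or the state of the WT alleles. The samples are labelled as hepatocytes, whereas the study describes whole liver tissue, and they are treated here as tissue. In such bulk RNA fewer cells of a type and less RNA per cell cannot be told apart. Expression is given as CPM, the counts of a gene scaled to a common library size with TMM factors. Changes are log2 fold changes of Arid1a KO over WT with their standard error (SE), and a gene was called when edgeR's quasi-likelihood test gave a Benjamini-Hochberg adjusted p under 0.05 over all genes tested. The 4 values of a genotype are always printed in the order 9 days replicate 1, 9 days replicate 2, 30 days replicate 1, 30 days replicate 2. The p-values measure the spread between these samples only.

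Arid1a encodes a large DNA-binding subunit of the BAF complex, which uses ATP to move and evict nucleosomes at enhancers and promoters. Arid1b encodes its alternative in the same complex, and a complex holds either of the pair. In the liver, BAF works beside the transcription factors that keep hepatocytes differentiated, and ARID1A is among the chromatin genes recurrently mutated in human liver cancer.

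Total counts were 10.3 to 30.8 M, with replicate 1 always shallower than replicate 2. The 9 hepatocyte markers tested summed to 19300 to 35900 CPM in the WT livers and 19900 to 24300 CPM in the Arid1a KO livers. The 30-day Arid1a KO replicate 1 library stood apart from its group. On the first principal component, with 34.2% of the variance, it lay at -26.9, while the other 3 Arid1a KO livers lay at 40.6 to 60.6 and the 4 WT livers at -58.4 to 2.35. Its correlation with replicate 2 of its group, 0.949, was the lowest of the 4 groups, the others being 0.972 to 0.977. The counts of genes called are therefore also given without it where they moved by more than 1.5 times.

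No difference in Arid1a transcripts was detected between the genotypes. Arid1a, at chromosome 4, 133679008 to 133756769 of GRCm38, stood at 67.5, 73.1, 97.3 and 80.4 CPM in the WT livers and at 82.1, 85.1, 87.7 and 71.4 CPM in the Arid1a KO livers. The genotypes overlapped and no difference was called (log2 0.04, SE 0.13, edgeR adjusted p = 0.912). The count of the gene cannot tell reads from exons that a deletion leaves in place from RNA of cells without the deletion. It therefore does not check the genotype, and the cause of the unchanged count was not tested. Arid1b stood at 35.6, 50.2, 56.1 and 40.2 CPM in the WT livers and at 35.6, 43.9, 62.7 and 35.2 CPM in the Arid1a KO livers, also without a call (log2 -0.04, SE 0.21, edgeR adjusted p = 0.951). Of the 24 listed BAF and PBAF subunit genes 23 were tested and 0 were called, with 0 at an unadjusted p under 0.05 and a median log2 of -0.01. DESeq2 called 0 as well. Over all 15956 genes tested edgeR called 4.22%, and 2890 had an unadjusted p under 0.05.

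Over both times 362 genes were higher and 312 lower in Arid1a KO, which is 4.22% of the 15956 genes tested, 2.27% higher and 1.96% lower. Changes were often large. Of the genes called higher 250 rose by more than 1 on the log2 scale and 130 by more than 2, and of those called lower 224 fell by more than 1 and 119 by more than 2. The median log2 was 1.52 for genes called higher and -1.69 for genes called lower, against 0.003 for all genes tested. In 565 of the 674 called genes (83.8%) the 4 Arid1a KO livers did not overlap the 4 WT livers, where 1590 of all genes tested (9.96%) did not overlap. The response was present in each Arid1a KO liver. Measured against the WT livers of the same time, the median over the genes called higher was 1.31 and 1.49 at 9 days and 1.18 and 1.58 at 30 days in replicates 1 and 2, and over those called lower -1.49, -1.48, -1.39 and -1.54. The share without overlap, the sizes of change and all these medians use the libraries that chose the genes. The choice largely fixes how they differ from all genes tested, and they are a description. Without the 30-day Arid1a KO replicate 1 library the counts were 538 and 471, and 596 of the 674 genes were called in the same direction.

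The genes with the strongest increase were almost silent in WT liver. Hao2, a peroxisomal hydroxyacid oxidase, stood at 0.1505, 0.151, 0.0891 and 0.0845 CPM in the WT livers and at 11.2, 29.5, 2.94 and 12.6 CPM in the Arid1a KO livers (log2 6.82, SE 0.66, edgeR adjusted p = 0.00235). Cdhr2, a protocadherin that links microvilli, stood at 0, 0.181, 0 and 0.296 CPM in the WT livers and at 8.48, 15.5, 10.4 and 27.9 CPM in the Arid1a KO livers (log2 6.59, SE 0.64, edgeR adjusted p = 0.00235). Every Arid1a KO liver exceeded every WT liver in both genes, by an order of magnitude or more at the closest. Htr1d, a serotonin receptor, had 354 counts over the 4 Arid1a KO livers and 1 count over the 4 WT livers, a ratio of 361 with a 95% counting interval of 64.4 to 14300. Counting intervals and floors cover counting error only. Cndp1, a secreted carnosine dipeptidase, stood at 0.301, 0.121, 0.713 and 0.338 CPM in the WT livers and at 9.03, 15.7, 12.2 and 4.46 CPM in the Arid1a KO livers (log2 4.96, SE 0.59, edgeR adjusted p = 0.00466). The macrophage glycoprotein gene Gpnmb stood at 0.0752, 0.272, 0.0891 and 0.0422 CPM in the WT livers and at 4.86, 6.02, 0.946 and 11.5 CPM in the Arid1a KO livers (log2 5.38, SE 0.86, edgeR adjusted p = 0.0134). The low Arid1a KO value of Gpnmb is that of the 30-day replicate 1 library, which still exceeded all WT livers, as the choice of genes without overlap requires.

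Other leading increases began from WT levels that ranged from near 0 to above 10 CPM. Rassf4, a Ras association domain protein (chromosome 6, 116633008 to 116673952), stood at 20.6, 16.6, 12.6 and 11.03 CPM in the WT livers and at 372, 314, 627 and 271 CPM in the Arid1a KO livers (log2 4.72, SE 0.35, edgeR adjusted p = 8.37e-04). Tff3, a trefoil peptide secreted by mucous epithelia, stood at 3.84, 6.799, 9.63 and 4.94 CPM in the WT livers and at 208, 202, 64.9 and 137 CPM in the Arid1a KO livers (log2 4.54, SE 0.44, edgeR adjusted p = 0.00235). In both genes the lowest Arid1a KO liver was several times above the highest WT liver, and for Tff3 the lowest was again the 30-day replicate 1 library. Tcf24, a basic helix-loop-helix factor, stood at 0.677, 0.272, 0.178 and 2.28 CPM in the WT livers and at 17.6, 33.3, 32.8 and 21.8 CPM in the Arid1a KO livers (log2 4.97, SE 0.62, edgeR adjusted p = 0.00513). Clic5, a chloride intracellular channel protein of microvilli, stood at 1.66, 1.601, 1.43 and 2.96 CPM in the WT livers and at 14.7, 18.7, 15.6 and 38.7 CPM in the Arid1a KO livers (log2 3.47, SE 0.34, edgeR adjusted p = 0.00235). Ncapg, a condensin subunit, stood at 1.35, 2.12, 0.624 and 0.127 CPM in the WT livers and at 17.2, 11.4, 7.78 and 11.2 CPM in the Arid1a KO livers (log2 3.72, SE 0.496, edgeR adjusted p = 0.006798). Slc4a9, an anion exchanger, rose as well (log2 5.18, SE 0.81), from 0, 0.212, 0.267 and 0.845 CPM in the WT livers. It had 1 high library, the 30-day Arid1a KO replicate 2 at 37.8 CPM against 3.99 to 7.35 CPM in the other 3. Pde6c, the catalytic subunit of the cone phosphodiesterase, rose by 4.405 (SE 0.75) from 0, 0.181, 0.446 and 3.08 CPM in the WT livers. Pde6c lost its call without WT 9 days replicate 2 (edgeR adjusted p = 0.0662). The glutathione transferase genes among the leading genes are described with their family.

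**Figure D1:**
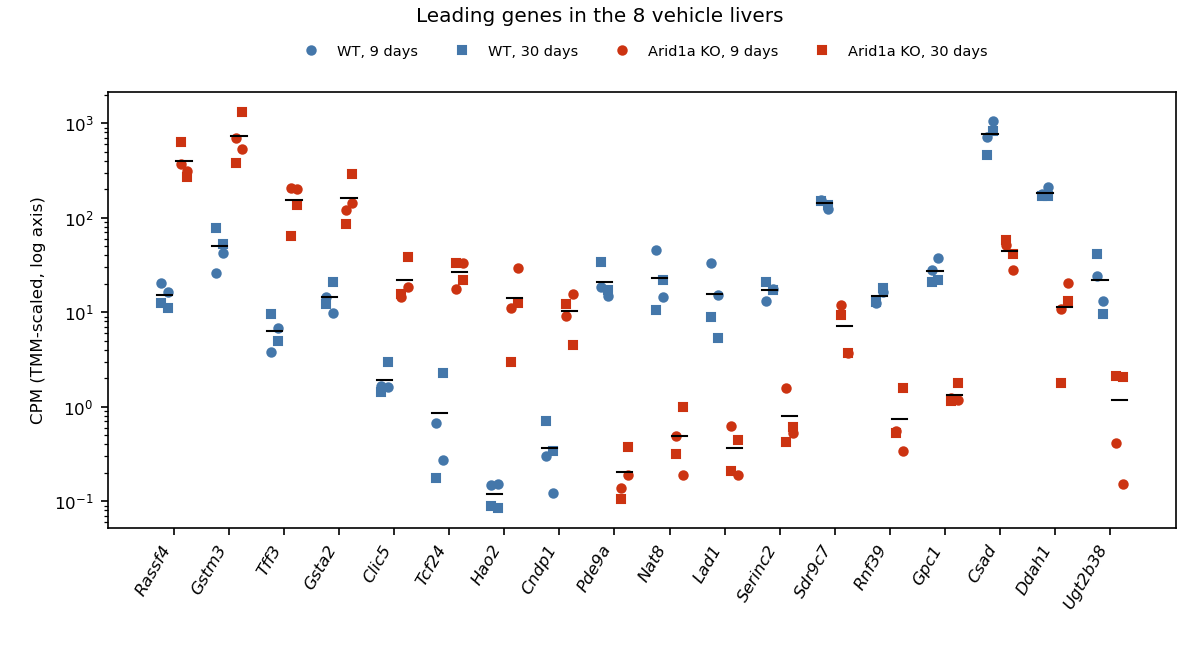
CPM on a log axis of 18 of the leading genes that have no library at 0, 1 point per liver (circles 9 days, squares 30 days, blue WT, red Arid1a KO) and a bar at the mean of each genotype. In the first 8 genes all red points lie above all blue points, and in the last 10 all lie below, as the choice of genes without overlap requires.

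Among the strongest decreases, Pde9a and Obp2a fell to near 0, while Sdr9c7, Csad and Ddah1 stayed above 1 CPM in every Arid1a KO liver. Pde9a, a phosphodiesterase that degrades cyclic GMP (chromosome 17, 31386210 to 31476310), stood at 18.3, 15.02, 33.9 and 17.1 CPM in the WT livers and at 0.139, 0.1895, 0.105 and 0.374 CPM in the Arid1a KO livers (log2 -6.48, SE 0.36, edgeR adjusted p = 2.95e-04). All 4 Arid1a KO livers were below 1 CPM and the lowest WT liver was above 10 CPM. Obp2a, an odorant-binding lipocalin, had 1164 counts in WT and 0 in all 4 Arid1a KO livers. Taking 3 counts over the 4 Arid1a KO livers as the floor, it was at least 380-fold lower. Sdr9c7, a short-chain dehydrogenase, stood at 154, 124, 152 and 137 CPM in the WT livers and at 11.9, 3.75, 9.25 and 3.68 CPM in the Arid1a KO livers (log2 -4.36, SE 0.42, edgeR adjusted p = 0.00235). Csad, the decarboxylase of taurine synthesis, stood at 723, 1064, 467 and 832 CPM in the WT livers and at 52.04, 27.7, 58.03 and 41.7 CPM in the Arid1a KO livers (log2 -4.098, SE 0.34, edgeR adjusted p = 0.00127). Ddah1, which degrades methylated arginine, an inhibitor of nitric oxide synthesis, stood at 179.6, 212, 171 and 169 CPM in the WT livers and at 10.7, 20.2, 1.79 and 13.2 CPM in the Arid1a KO livers (log2 -4.03, SE 0.51, edgeR adjusted p = 0.00562). For Sdr9c7, Csad and Ddah1 the highest Arid1a KO liver was far below the lowest WT liver at both times.

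Other leading decreases follow. Gpc1, a glypican, stood at 28.1, 37.2, 20.9 and 21.9 CPM in the WT livers and at 1.25, 1.17, 1.16 and 1.77 CPM in the Arid1a KO livers (log2 -4.27, SE 0.25, edgeR adjusted p = 2.95e-04). Lad1, an anchoring filament protein of basement membranes, stood at 33.3, 15.3, 9.003 and 5.37 CPM in the WT livers and at 0.625, 0.1895, 0.2103 and 0.443 CPM in the Arid1a KO livers (log2 -5.19, SE 0.55, edgeR adjusted p = 0.00322). Cdh1, E-cadherin, stood at 31.7, 56.9, 102 and 53.3 CPM in the WT livers and at 3.96, 4.85, 6.83 and 15.4 CPM in the Arid1a KO livers (log2 -3.04, SE 0.35, edgeR adjusted p = 0.00377). The Arid1a KO livers did not overlap the WT livers in these 3 genes, which the choice of genes required. Serinc2, a serine incorporator (log2 -4.47, SE 0.39), and Rnf39, a ring finger protein (log2 -4.32, SE 0.41), fell. Further decreases were those of Scara5, a ferritin receptor (log2 -5.04, SE 0.77), Sema5b, a semaphorin (log2 -4.100, SE 0.69), Erbb4, a receptor of neuregulins (log2 -3.93, SE 0.67), and Caln1, a calcium-binding protein (log2 -4.46, SE 0.93). Scara5 lost its call without Arid1a KO 9 days replicate 2 (edgeR adjusted p = 0.0501). Sema5b lost its call without Arid1a KO 9 days replicate 2 (edgeR adjusted p = 0.0897). Erbb4 lost its call without WT 30 days replicate 2 (edgeR adjusted p = 0.0678), without Arid1a KO 9 days replicate 1 (edgeR adjusted p = 0.0561) and without Arid1a KO 9 days replicate 2 (edgeR adjusted p = 0.0715). Caln1 lost its call without any 1 of 6 libraries (all but Arid1a KO 30 days replicate 1 and Arid1a KO 30 days replicate 2), with an edgeR adjusted p of at most 0.108.

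Among the most abundant called transcripts, Csad had the strongest decrease. Gstm1, a glutathione transferase, stood at 682, 854, 884 and 908 CPM in the WT livers and at 2092, 1893, 1813 and 2525 CPM in the Arid1a KO livers (log2 1.32, SE 0.16, edgeR adjusted p = 0.00431). Serpina3n, a secreted protease inhibitor, stood at 798, 753, 501 and 495 CPM in the WT livers and at 1873, 2031, 1091 and 876 CPM in the Arid1a KO livers (log2 1.16, SE 0.14, edgeR adjusted p = 0.00482). H2-T23, a non-classical MHC molecule, stood at 363, 419, 294 and 379.7 CPM in the WT livers and at 742, 722, 535 and 641 CPM in the Arid1a KO livers (log2 0.85, SE 0.13, edgeR adjusted p = 0.0126), and H2-T23 lost its call without WT 9 days replicate 1 (edgeR adjusted p = 0.0523). Ctsl, cathepsin L (log2 0.75, SE 0.13), Ugp2, which makes UDP-glucose (log2 1.09, SE 0.22), C1s1, a complement protease (log2 0.67, SE 0.13), and Hsd17b13, a lipid droplet dehydrogenase (log2 0.74, SE 0.16), also passed the test with no overlap. Cyp3a11, a major steroid and drug oxidase, stood at 1943, 2149, 1689 and 2109 CPM in the WT livers and at 1067, 779, 838 and 1310.0 CPM in the Arid1a KO livers (log2 -0.99, SE 0.197, edgeR adjusted p = 0.03097), and Oat, ornithine aminotransferase, at 993, 592, 562 and 849.9 CPM in the WT livers and at 451, 356, 252 and 304 CPM in the Arid1a KO livers (log2 -1.16, SE 0.22, edgeR adjusted p = 0.0254). Mug2, a murinoglobulin (log2 -2.93, SE 0.496), Aldh3a2, a fatty aldehyde dehydrogenase (log2 -2.09, SE 0.44), Abcc3, a basolateral bile salt exporter (log2 -1.92, SE 0.42), Ces1f, a carboxylesterase (log2 -0.75, SE 0.17), and Abcb4, the canalicular phospholipid floppase (log2 -0.51, SE 0.11), were lower. Most of these calls were lost when 1 library was left out. Oat lost its call without any 1 of 4 libraries (all but WT 9 days replicate 2, WT 30 days replicate 1, Arid1a KO 9 days replicate 1 and Arid1a KO 30 days replicate 1), with an edgeR adjusted p of at most 0.0992. Mug2 lost its call without WT 9 days replicate 1 (edgeR adjusted p = 0.0511), without Arid1a KO 9 days replicate 1 (edgeR adjusted p = 0.0566) and without Arid1a KO 9 days replicate 2 (edgeR adjusted p = 0.0621). Ctsl lost its call without any 1 of 5 libraries (all but WT 30 days replicate 2, Arid1a KO 30 days replicate 1 and Arid1a KO 30 days replicate 2), with an edgeR adjusted p of at most 0.0741. The others, Ugp2, C1s1, Hsd17b13, Cyp3a11, Aldh3a2, Abcc3, Ces1f and Abcb4, each kept the call in at most 2 of the 8 fits that left out 1 library.

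Most of the genes called over both times were called at neither time alone. At 9 days alone 101 of 17831 genes (0.566%) were called and at 30 days alone 92 (0.516%). Of the 674 genes called over both times, 96 were called at 9 days, 90 at 30 days, 50 at each, and 538 (79.8%) at neither, 294 of them higher and 244 lower. The 538 included large changes, 159 of them beyond 2 on the log2 scale in either direction, and their median absolute log2 was 1.39. The counts at each time come from a fit of 14 liver libraries and the count over both from the 8 vehicle libraries. Within the fit of 14 libraries 622 genes were called over both times and 480 of these (77.2%) at neither time, and with 1 coefficient per group in the 8 libraries alone 485 were called over both, 56 at 9 days, 36 at 30 days and 418 of the 485 (86.2%) at neither. Only 7 genes called at a time were not called over both. Genes called over both times had the same sign at both in 672 of 674 cases, which the choice of genes largely fixes. The exceptions were Cyp3a41a (log2 -4.98 at 9 days and 0 at 30 days) and Sult2a2 (log2 4.08 and -0.13), both of families with near-identical copies, whose reads may be split uncertainly. At 30 days Sult2a2 stood at 0 and 0.0422 CPM in the WT livers and at 0 and 0.034 CPM in the Arid1a KO livers. Its 30-day sign therefore carries no information, and its call rests on the 9-day livers. The median absolute log2 of the called genes was 1.5 at 9 days and 1.59 at 30 days. A test of the difference between the times called 0 genes with edgeR, with 287 genes (1.8%) at an unadjusted p under 0.05, 22 of them (3.26%) among the 674. DESeq2 called 7. That does not show equal effects at both times.

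**Figure D2:**
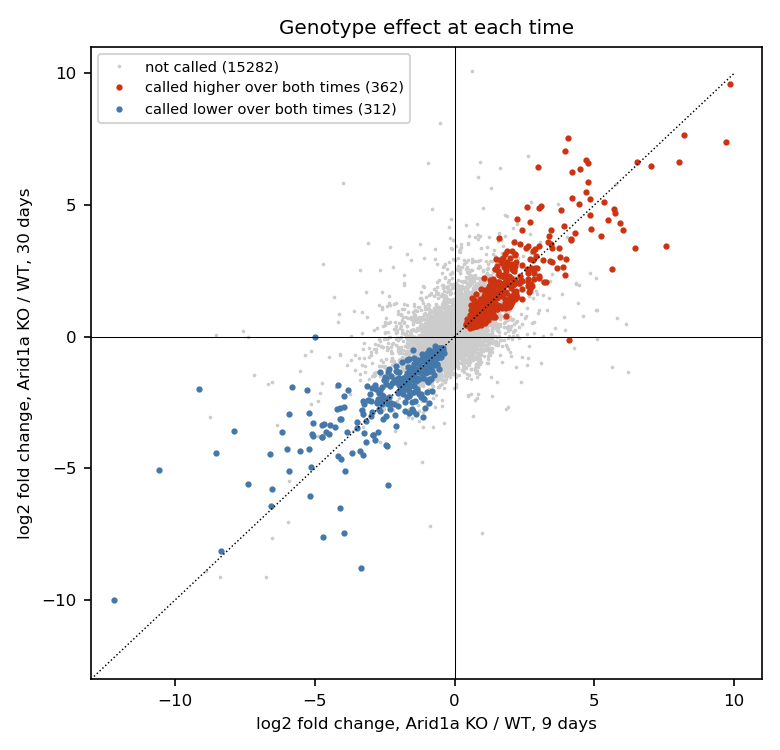
Log2 fold change of Arid1a KO over WT at 9 days (horizontal) against 30 days (vertical), 1 point per gene, with 362 genes called higher over both times in red, 312 called lower in blue and the rest in grey; the dotted line marks equal change. All red and blue points but 2 lie in the quadrants where both times have the same sign.

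Several of the genes called at neither time alone had tight values within each genotype. Cyp26a1, which degrades retinoic acid, stood at 34.8, 34.2, 22.8 and 18.4 CPM in the WT livers and at 85.3, 78.1, 78.4 and 79.1 CPM in the Arid1a KO livers (log2 1.59, SE 0.16, edgeR adjusted p = 0.00294). Tmem86b, a lysoplasmalogenase, stood at 85.7, 71.3, 81.9 and 82.6 CPM in the WT livers and at 157, 186, 146 and 170.0 CPM in the Arid1a KO livers (log2 1.04, SE 0.12, edgeR adjusted p = 0.00381). Apol9a, an apolipoprotein L, also rose (log2 1.42, SE 0.17). Msrb3, a methionine sulfoxide reductase, stood at 16.1, 16.4, 17.03 and 13.4 CPM in the WT livers and at 7.29, 6.63, 6.098 and 6.57 CPM in the Arid1a KO livers (log2 -1.24, SE 0.14, edgeR adjusted p = 0.00354). Emp2, an epithelial membrane protein, stood at 16.9, 14.5, 16.8 and 17.3 CPM in the WT livers and at 4.52, 3.64, 4.10 and 6.84 CPM in the Arid1a KO livers (log2 -1.78, SE 0.197, edgeR adjusted p = 0.00354). Syde2, a GTPase activator (log2 -3.38, SE 0.31), Pgap1, an enzyme of GPI anchor remodelling (log2 -1.46, SE 0.16), Adrb3, an adrenergic receptor (log2 -2.73, SE 0.302), and Neb, nebulin (log2 -1.11, SE 0.12), fell too. These 9 genes were chosen without overlap between genotypes, and all kept the call whichever library was left out. In the fit of 14 libraries, which gives the values at each time, Cyp26a1 was not called over both times either (edgeR adjusted p = 0.359), and the other 8 were. Exons of Adrb3 and Neb share bases with a called predicted gene on the opposite strand, and since the sources used here do not give the strand setting of the counting, the reads of such pairs cannot be told apart.

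Genes of the type I interferon response rose as a group. Interferon acts through Jak1 and Tyk2 on Stat2 and Irf9, which bind interferon-stimulated response elements and switch on antiviral enzymes, sensors and the factor Irf7. All 34 listed genes were tested and all 34 were positive, 29 were called higher and 0 lower, and the median log2 was 1.5, where 2.27% of all genes were called higher. In 27 of the 34 the genotypes did not overlap, against 9.96% of all genes. The median was 1.34 at 9 days and 1.76 at 30 days. Summed over the list, expression was 897 to 1440 CPM in the WT livers and 2390 to 3330 CPM in the Arid1a KO livers. The members that were not called were Irf9 (log2 0.49), Stat2 (0.35), Xaf1 (1.29), Parp14 (0.69) and Ifi35 (0.59), with edgeR adjusted p of 0.0646, 0.321, 0.165, 0.115 and 0.0990. The number called was 29 without the 30-day Arid1a KO replicate 1 library, 33 with DESeq2 and 17 to 29 over the 8 fits that left out 1 library.

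The effectors of the response showed the pattern in each library. Isg15, a ubiquitin-like modifier, stood at 14.8, 16.5, 12.6 and 11.3 CPM in the WT livers and at 64.2, 103, 76.1 and 79.1 CPM in the Arid1a KO livers (log2 2.56, SE 0.17, edgeR adjusted p = 4.96e-04). Oas1a, a synthetase of the second messenger that activates RNase L, stood at 5.42, 6.74, 2.76 and 2.66 CPM in the WT livers and at 30.6, 41.7, 24.6 and 31.01 CPM in the Arid1a KO livers (log2 2.94, SE 0.22, edgeR adjusted p = 8.37e-04). Ifit1, which binds foreign RNA caps, stood at 17.8, 14.96, 15.3 and 7.86 CPM in the WT livers and at 67.9, 97.6, 58.8 and 55.3 CPM in the Arid1a KO livers (log2 2.33, SE 0.22, edgeR adjusted p = 0.002203). For these 3 genes every Arid1a KO liver was more than 3 times as high as every WT liver of its own time. Mx2, an antiviral GTPase, stood at 18.6, 17.7, 18.5 and 13.3 CPM in the WT livers and at 42.1, 52.6, 51.3 and 57.8 CPM in the Arid1a KO livers (log2 1.58, SE 0.16, edgeR adjusted p = 0.00235). Ifi27, a small mitochondrial protein, stood at 157, 179.6, 113 and 139 CPM in the WT livers and at 444, 413, 297 and 433 CPM in the Arid1a KO livers (log2 1.44, SE 0.15, edgeR adjusted p = 0.00326). All 5 kept their calls whichever library was left out. The strongest in fold was Ifi44 (log2 3.16, SE 0.35), at 4.51, 6.44, 6.15 and 2.704 CPM in the WT livers and at 36.96, 81.5, 26.6 and 36.3 CPM in the Arid1a KO livers. Regulators rose as well, Irf7 (log2 2.100, SE 0.27) among the activators and Usp18 (log2 2.04, SE 0.22), which removes Isg15 and damps receptor signalling. The sensors of viral RNA Ddx58 (log2 0.91, SE 0.13), Ifih1 (log2 0.94, SE 0.15) and Dhx58 (log2 0.92, SE 0.18) rose by less. Oas1a and Oas1g, and Ifit3 and Ifit3b, are near-identical pairs between which the authors' counting could split reads.

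The promoters of Isg15, Oas1a and Ifit1 are shown because these called genes with the smallest p carry the response element core in the window next to the start. The sequences run 5′ to 3′ on the strand of the gene from 250 bases before to 50 after the start, from RefSeq on GRCm38.p6. Capitals mark the matches to the motif searched, GAAA followed after any 2 bases by GAAA again, or on the other strand its reverse complement (TTTC, any 2 bases, TTTC), and neighbouring matches can overlap.
Isg15 (chr4:156200769-156201068, minus strand): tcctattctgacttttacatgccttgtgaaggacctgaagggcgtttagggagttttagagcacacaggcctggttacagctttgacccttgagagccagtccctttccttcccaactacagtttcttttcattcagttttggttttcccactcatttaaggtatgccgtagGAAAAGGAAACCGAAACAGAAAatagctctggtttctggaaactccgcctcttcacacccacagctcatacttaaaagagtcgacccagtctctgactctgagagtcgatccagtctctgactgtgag
Oas1a (chr5:120907476-120907775, minus strand): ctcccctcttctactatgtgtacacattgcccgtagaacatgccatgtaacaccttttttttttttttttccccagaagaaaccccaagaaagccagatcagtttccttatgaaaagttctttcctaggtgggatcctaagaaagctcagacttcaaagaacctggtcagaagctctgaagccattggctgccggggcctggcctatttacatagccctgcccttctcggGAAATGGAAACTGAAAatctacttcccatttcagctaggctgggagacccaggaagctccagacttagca
Ifit1 (chr19:34640639-34640938, plus strand): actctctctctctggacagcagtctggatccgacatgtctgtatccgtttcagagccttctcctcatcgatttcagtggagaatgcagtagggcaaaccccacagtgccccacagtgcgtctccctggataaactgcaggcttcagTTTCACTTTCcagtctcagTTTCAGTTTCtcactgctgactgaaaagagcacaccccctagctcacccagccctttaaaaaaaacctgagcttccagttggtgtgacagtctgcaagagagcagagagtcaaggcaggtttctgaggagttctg
Isg15 has 3 overlapping matches that begin 78 bases before the start, Oas1a has 2 that begin 20 bases before it, and Ifit1 has 2 separate matches on the other strand, the first 104 bases before it. Of the 34 listed genes 23 have a promoter in the table, and in 13 of these (56.5%) a window holds the motif on either strand. The share was 3.99% of the 27025 genes with a promoter of the same length and 3.87% of the genes tested that could be matched. Of the genes called higher outside the list 21 of 236 (8.9%) held it, and of those called lower 7 of 252 (2.78%). A match describes these letters and is not a binding site.

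**Figure D3:**
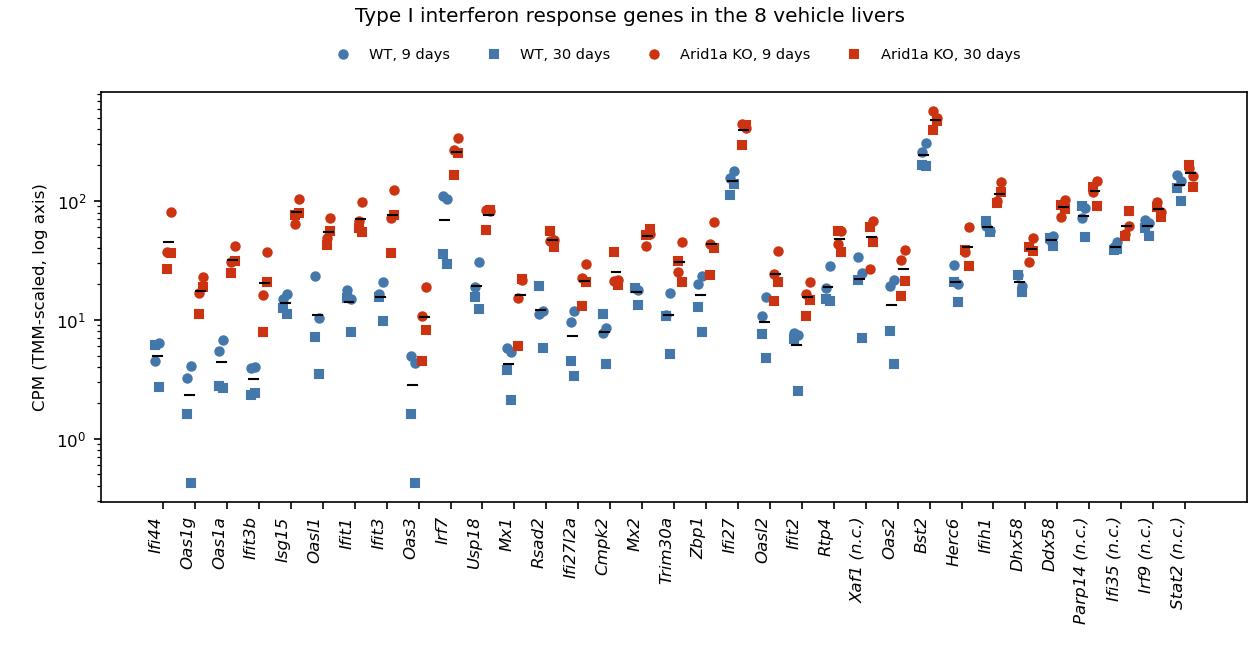
CPM on a log axis of 33 of the listed interferon response genes, ordered from left to right by log2 fold change, 1 point per liver (circles 9 days, squares 30 days, blue WT, red Arid1a KO) with a bar at the mean; genes marked n.c. were not called. The red means lie above the blue means in all 33 genes.

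Guanylate-binding proteins and the antigen processing machinery, which interferons also induce, moved in part. Of 14 tested guanylate-binding and immunity-related GTPases 5 were called higher (2.27% of all genes) and 0 lower, with a median log2 of 0.86. Gbp3 stood at 22.8, 38.5, 10.96 and 6.42 CPM in the WT livers and at 97.3, 117, 41.1 and 42.7 CPM in the Arid1a KO livers (log2 2.04, SE 0.23, edgeR adjusted p = 0.00377) and did not overlap. Gbp2 (log2 2.38, SE 0.43), Gbp7 (log2 1.09, SE 0.199), Gbp9 (log2 1.42, SE 0.28) and Gbp10 (log2 1.76, SE 0.37) were the other 4, and in Gbp2 the 30-day Arid1a KO replicate 1 library lay within the WT range. Over the fits that left out 1 library 1 to 5 were called, 4 without that library. Of 18 antigen presentation genes 5 were called higher, against the same 2.27%, and 0 lower, with a median log2 of 0.24. They were the peptide transporter Tap1 (log2 1.11, SE 0.17, edgeR adjusted p = 0.0127), its partner Tap2 (log2 0.64, SE 0.14), the loading factor Tapbp (log2 0.79, SE 0.16) and the immunoproteasome subunits Psmb8 (log2 0.96, SE 0.15) and Psmb9 (log2 1.33, SE 0.24). The count was 1 to 6 over the fits that left out 1 library and 6 without the 30-day Arid1a KO replicate 1 library. Tap1 and Psmb9 share exon bases on opposite strands. Among 17 chemokines 2 were called higher, Ccl9 (log2 1.48, SE 0.22, edgeR adjusted p = 0.00995) and the interferon-inducible Cxcl10 (log2 1.59, SE 0.32, edgeR adjusted p = 0.0335), with a median log2 of 0.45. Cxcl10 lost its call without any 1 of 5 libraries (all but WT 9 days replicate 2, Arid1a KO 9 days replicate 1 and Arid1a KO 30 days replicate 1), with an edgeR adjusted p of at most 0.110.

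Glutathione transferases and other genes of the NRF2 response rose in 11 of 25 cases. NRF2 is the factor that induces glutathione synthesis and conjugation of electrophiles. Of 25 tested genes 11 were called higher (2.27% of all genes) and 0 lower, 23 were positive, 15 did not overlap (9.96% of all genes) and the median log2 was 0.86. The mu class led the group. Gstm3 stood at 26.2, 42.5, 77.1 and 53.02 CPM in the WT livers and at 702, 539, 382 and 1308 CPM in the Arid1a KO livers (log2 3.94, SE 0.41, edgeR adjusted p = 0.00305), Gstm2 at 44.5, 52.6, 44.1 and 52.0 CPM in the WT livers and at 223, 260.2, 151 and 243 CPM in the Arid1a KO livers (log2 2.17, SE 0.18, edgeR adjusted p = 0.00126) and Gstm4 at 54.5, 63.5, 99.8 and 97.8 CPM in the WT livers and at 159, 208, 284 and 383 CPM in the Arid1a KO livers (log2 1.69, SE 0.14, edgeR adjusted p = 0.00141). In the alpha class Gsta2 stood at 14.7, 9.91, 12.1 and 21.0 CPM in the WT livers and at 121, 144, 84.9 and 293 CPM in the Arid1a KO livers (log2 3.47, SE 0.39, edgeR adjusted p = 0.00374) and Gsta4 rose (log2 1.78, SE 0.28). Gsta1 stood at 1.28, 1.24, 0.802 and 0.507 CPM in the WT livers and at 28.6, 18.1, 2.21 and 92.5 CPM in the Arid1a KO livers (log2 5.11, SE 1.03, edgeR adjusted p = 0.0326). Its spread between Arid1a KO livers was wide, with the 30-day replicate 1 library lowest and replicate 2 highest, and Gsta1 lost its call without any 1 of 6 libraries (all but Arid1a KO 30 days replicate 1 and Arid1a KO 30 days replicate 2), with an edgeR adjusted p of at most 0.107. The Gsta and Gstm genes have near-identical copies, so the split of reads within each class is uncertain. Srxn1, which repairs peroxiredoxins (log2 2.03, SE 0.34), Gclc, the catalytic subunit of glutathione synthesis (log2 0.86, SE 0.15), Gstp2 (log2 2.21, SE 0.34) and G6pdx, the source of NADPH (log2 0.82, SE 0.19), rose too. Other standard members were not called, among them Nqo1 (log2 1.64, edgeR adjusted p = 0.137), Hmox1 (0.54, adjusted p = 0.665), Gclm (-0.18, adjusted p = 0.471) and Txnrd1 (0.35, adjusted p = 0.291). Without the 30-day Arid1a KO replicate 1 library 13 were called, with DESeq2 17, and over the fits that left out 1 library 6 to 13.

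Other detoxification genes went in both directions. Of 22 CAR and PXR targets, genes under receptors for drugs and other foreign compounds, 4 were called higher (2.27% of all genes) and 2 lower (1.96%). Their median log2 was -0.03. The higher ones were Gstm3 and Gsta2, Gstt3, another glutathione transferase (log2 1.33, SE 0.25), and Akr1b7, an aldo-keto reductase that stood at 0.301, 0.906, 0.178 and 0.0845 CPM in the WT livers and at 10.7, 28.3, 0.841 and 7.59 CPM in the Arid1a KO livers (log2 4.96, SE 0.75, edgeR adjusted p = 0.0109). The lower ones were Cyp3a11 and Abcc3. In Akr1b7 the 30-day Arid1a KO replicate 1 library overlapped WT and the other 3 were far above it. Of 20 UDP-glucuronosyltransferases and sulfotransferases 3 were called higher, Ugt1a5, Ugt1a9 (log2 0.88, SE 0.16) and Sult1c2 (log2 1.78, SE 0.29), and 2 lower. Of the latter, Ugt3a1 stood at 86.3, 76.5, 69.2 and 67.4 CPM in the WT livers and at 8.89, 21.9, 15.98 and 7.86 CPM in the Arid1a KO livers (log2 -2.47, SE 0.304, edgeR adjusted p = 0.005102) and Ugt2b38 at 24.2, 13.3, 41.4 and 9.51 CPM in the WT livers and at 0.417, 0.152, 2.103 and 2.04 CPM in the Arid1a KO livers (log2 -4.56, SE 0.68, edgeR adjusted p = 0.0103). Ugt1a5 and Ugt1a9 share exon bases, so that pair is not independent, and Ugt2b38 has near-identical copies. Sult1c2 lost its call without WT 9 days replicate 1 (edgeR adjusted p = 0.0519), without WT 9 days replicate 2 (edgeR adjusted p = 0.0605) and without Arid1a KO 9 days replicate 2 (edgeR adjusted p = 0.0516). Gstt3 and Ugt1a9 each kept the call in 3 of those 8 fits.

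The Nat8 genes encode acetyltransferases of the endoplasmic reticulum that finish mercapturic acids, the excreted end of glutathione conjugation, and 3 of them fell. Of 7 tested 0 were positive, 3 were called lower (1.96% of all genes) and the median log2 was -1. Nat8 stood at 45.97, 14.6, 10.5 and 22.1 CPM in the WT livers and at 0.486, 0.1895, 0.315 and 0.987 CPM in the Arid1a KO livers (log2 -5.39, SE 0.66, edgeR adjusted p = 0.00493). Nat8f5 stood at 18.3, 7.04, 6.33 and 7.31 CPM in the WT livers and at 0.347, 0.303, 2.103 and 1.36 CPM in the Arid1a KO livers (log2 -3.44, SE 0.68, edgeR adjusted p = 0.0306). Neither overlapped between genotypes. Nat8f1 was lower by a smaller margin (log2 -0.996, SE 0.22) with overlap. Nat8f5 lost its call without any 1 of 5 libraries (all but WT 9 days replicate 1, WT 30 days replicate 1 and Arid1a KO 30 days replicate 1), with an edgeR adjusted p of at most 0.109. Nat8f1 lost its call without any 1 of 6 libraries (all but WT 30 days replicate 1 and Arid1a KO 30 days replicate 1), with an edgeR adjusted p of at most 0.155. These genes are recent copies of each other, and reads may be split uncertainly among them.

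Cyclic nucleotide phosphodiesterases, which end cyclic AMP and cyclic GMP signals, were called lower in 4 of 18 (1.96% of all genes) and higher in 1 of 18 (2.27%). Their median log2 was -0.17. Beside Pde9a, the cyclic AMP enzymes Pde4a and Pde4b fell. Pde4a stood at 10.8, 13.9, 8.38 and 8.24 CPM in the WT livers and at 3.47, 4.09, 3.36 and 3.03 CPM in the Arid1a KO livers (log2 -1.55, SE 0.18, edgeR adjusted p = 0.00377) and Pde4b at 17.98, 17.2, 34.4 and 17.6 CPM in the WT livers and at 5.77, 8.79, 12.5 and 9.53 CPM in the Arid1a KO livers (log2 -1.25, SE 0.23, edgeR adjusted p = 0.0249). Pde5a, which degrades cyclic GMP, was the fourth (log2 -1.31, SE 0.298), and the cone enzyme Pde6c was the one that rose. Pde4b lost its call without any 1 of 6 libraries (all but WT 30 days replicate 2 and Arid1a KO 30 days replicate 1), with an edgeR adjusted p of at most 0.0727. With 1 library left out 2 to 3 were called lower.

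Genes of lipid oxidation had negative values nearly throughout and few calls. Of 26 genes of fatty acid oxidation and PPAR alpha targets 1 was positive, 0 were called higher and 2 lower (1.96% of all genes). Their median log2 was -0.50 (-0.52 at 9 days and -0.49 at 30 days). The calls were the thioesterases Acot1, at 44.4, 58.5, 13.99 and 25.98 CPM in the WT livers and at 7.23, 4.66, 8.31 and 2.93 CPM in the Arid1a KO livers (log2 -2.54, SE 0.41, edgeR adjusted p = 0.0145), and Acot2 (log2 -1.23, SE 0.24, edgeR adjusted p = 0.0272), near-identical neighbours. Acot1 lost its call without Arid1a KO 9 days replicate 1 (edgeR adjusted p = 0.0555) and without Arid1a KO 9 days replicate 2 (edgeR adjusted p = 0.0569). Acot2 lost its call without any 1 of 5 libraries (all but WT 30 days replicate 1, Arid1a KO 30 days replicate 1 and Arid1a KO 30 days replicate 2), with an edgeR adjusted p of at most 0.108. The hormone Fgf21 had a log2 of -2.44 (edgeR adjusted p = 0.114) and the trifunctional protein subunit Hadhb one of -0.52 (adjusted p = 0.0563). Without the 30-day Arid1a KO replicate 1 library 6 were called lower, as with DESeq2, and over the fits that left out 1 library 0 to 6. Of 23 genes of cholesterol synthesis and uptake 2 were positive and 0 were called with edgeR, 5 had an unadjusted p under 0.05, DESeq2 called 4 lower, and the median log2 was -0.44.

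Fatty acid synthesis split by gene, where 2.27% of all genes tested were called higher and 1.96% lower. Of 19 genes 1 was called higher and 1 lower (3 without the 30-day Arid1a KO replicate 1 library), with a median log2 of -0.19. Scd2, a stearoyl-CoA desaturase that adult hepatocytes use little, stood at 9.93, 14.5, 9.09 and 7.35 CPM in the WT livers and at 44.7, 62.5, 59.2 and 136 CPM in the Arid1a KO livers (log2 2.84, SE 0.39, edgeR adjusted p = 0.00752). Me1, malic enzyme and a source of NADPH, stood at 183, 258, 179 and 256 CPM in the WT livers and at 89.7, 82.6, 96.7 and 78.05 CPM in the Arid1a KO livers (log2 -1.34, SE 0.17, edgeR adjusted p = 0.005102). Neither overlapped, and both kept the call whichever library was left out. Of 21 apolipoproteins and lipoprotein assembly genes 2 were called higher, with a median log2 of 0.09. Apoa4, an apolipoprotein of chylomicrons and HDL, stood at 169, 220.1, 165 and 168 CPM in the WT livers and at 935, 657, 515 and 681 CPM in the Arid1a KO livers (log2 1.94, SE 0.17, edgeR adjusted p = 0.00165), and Apom, a carrier of sphingosine phosphate, at 214, 301, 258 and 308 CPM in the WT livers and at 477, 477, 438 and 406 CPM in the Arid1a KO livers (log2 0.73, SE 0.15, edgeR adjusted p = 0.0327). Apom lost its call without any 1 of 5 libraries (all but WT 30 days replicate 2, Arid1a KO 30 days replicate 1 and Arid1a KO 30 days replicate 2), with an edgeR adjusted p of at most 0.110. Abcb4 was the 1 call, lower, among 19 bile acid genes, of which 2 were lower without the 30-day Arid1a KO replicate 1 library.

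Genes that p53 induces were called higher in 6 of 20 (2.27% of all genes) and lower in 0 of 20, with a median log2 of 0.47. Ccng1, cyclin G1, stood at 64.3, 57.1, 52.2 and 49.1 CPM in the WT livers and at 117, 140.5, 76.8 and 95.5 CPM in the Arid1a KO livers (log2 0.93, SE 0.13, edgeR adjusted p = 0.00785) and Cdkn1a, the cell cycle inhibitor p21, at 17.5, 10.2, 11.1 and 2.999 CPM in the WT livers and at 59.3, 31.4, 40.6 and 68.0 CPM in the Arid1a KO livers (log2 2.34, SE 0.48, edgeR adjusted p = 0.0339). Neither overlapped. Eda2r, a death receptor (log2 1.796, SE 0.36), Phlda3, an Akt repressor (log2 2.09, SE 0.43), Aen, an apoptosis nuclease (log2 0.74, SE 0.15), and Mdm2, the ligase of p53 (log2 0.48, SE 0.097), completed the calls. Cdkn1a lost its call without any 1 of 4 libraries (all but WT 9 days replicate 1, WT 30 days replicate 2, Arid1a KO 9 days replicate 2 and Arid1a KO 30 days replicate 1), with an edgeR adjusted p of at most 0.101. Eda2r lost its call without any 1 of 6 libraries (all but Arid1a KO 30 days replicate 1 and Arid1a KO 30 days replicate 2), with an edgeR adjusted p of at most 0.116. Mdm2 lost its call without any 1 of 8 libraries, with an edgeR adjusted p of at most 0.118. The list had 7 calls without the 30-day Arid1a KO replicate 1 library and 1 to 7 over the fits that left out 1 library. Trp53 itself had a log2 of 0.14 (edgeR adjusted p = 0.652).

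Cell cycle genes were positive nearly throughout, but their spread was wide and Ncapg was the only call. All 24 mitosis genes were positive, with a median log2 of 0.83 (0.42 at 9 days and 1.37 at 30 days), 1 was called and 7 had an unadjusted p under 0.05. Over all 15956 genes tested 8027 were positive, 2890 had an unadjusted p under 0.05 and 2.27% were called higher. Mki67, the Ki-67 antigen, stood at 6.32, 21.4, 1.16 and 1.06 CPM in the WT livers and at 16.3, 21.7, 4.94 and 6.84 CPM in the Arid1a KO livers (log2 1.29, SE 0.500, edgeR adjusted p = 0.216), so that the genotypes overlapped. Top2a had a log2 of 1.43 (edgeR adjusted p = 0.173). Of 22 DNA replication and S phase genes 19 were positive and 0 were called with edgeR, with 5 at an unadjusted p under 0.05, 2 called higher with DESeq2 and a median log2 of 0.68. Summed mitosis expression was 18.5 to 149 CPM in WT and 47.2 to 171 CPM in Arid1a KO, overlapping ranges.

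Of 20 fetal and oncofetal genes 3 were called higher (2.27% of all genes) and 2 lower (1.96%), with a median log2 of 0.46. Besides Tff3 and Scd2, H19, an imprinted RNA of fetal liver, rose from 0.903, 2.02, 0.981 and 0.7604 CPM in the WT livers to 12.6, 14.8, 2.84 and 9.56 CPM in the Arid1a KO livers (log2 3.04, SE 0.42, edgeR adjusted p = 0.00752), with the lowest Arid1a KO value in the 30-day replicate 1 library. Sox9, a ductal and progenitor factor, stood at 4.82, 2.81, 3.39 and 8.62 CPM in the WT livers and at 0.903, 1.17, 1.68 and 1.09 CPM in the Arid1a KO livers (log2 -2.01, SE 0.37, edgeR adjusted p = 0.0234), and Robo1, an axon guidance receptor, fell (log2 -1.71, SE 0.303). Sox9 lost its call without any 1 of 5 libraries (all but WT 9 days replicate 2, WT 30 days replicate 1 and Arid1a KO 30 days replicate 1), with an edgeR adjusted p of at most 0.0752. Robo1 lost its call without WT 9 days replicate 2 (edgeR adjusted p = 0.0501), without Arid1a KO 9 days replicate 2 (edgeR adjusted p = 0.0798) and without Arid1a KO 30 days replicate 2 (edgeR adjusted p = 0.0563). The fetal marker Afp was not called (log2 0.47, edgeR adjusted p = 0.702).

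Lists of liver identity and zonation held 0 to 2 calls, where 2.27% of all genes tested were called higher and 1.96% lower. Of 24 transcription factors of hepatocyte identity 0 were called, 1 had an unadjusted p under 0.05 and the median log2 was -0.08, with Hnf4a at -0.19 and Cebpa at -0.05. DESeq2 called 0. Of 18 pericentral genes 2 were called lower, Oat and the glutamate transporter Slc1a2 (log2 -1.72, SE 0.37), and of 19 periportal genes Hsd17b13 was called higher and Cdh1 lower. Of 13 Wnt feedback targets Tnfrsf19 was called lower (log2 -1.43, SE 0.32). Without the 30-day Arid1a KO replicate 1 library 1 pericentral gene was called higher, 3 periportal genes were called higher and 2 lower, and 0 Wnt targets were called lower. Slc1a2 lost its call without any 1 of 7 libraries (all but Arid1a KO 9 days replicate 1), with an edgeR adjusted p of at most 0.127. Tnfrsf19 lost its call without any 1 of 7 libraries (all but Arid1a KO 9 days replicate 2), with an edgeR adjusted p of at most 0.128. All 8 libraries had Xist at or below 0.713 CPM and the Y-linked Ddx3y at 57.1 to 89.9 CPM, and the sex-biased lists had calls in both directions. The female-biased list had a median log2 of -0.49, with -0.82 at 9 days and 0.58 at 30 days. In it 14 of 22 genes had an unadjusted p under 0.05, against 2890 of all 15956 genes tested. The male-biased list had a median log2 of -0.79, with -1.27 at 9 days and -0.18 at 30 days, and 5 of its 19 genes had an unadjusted p under 0.05. Of 22 female-biased genes 3 were higher, Hao2 and Sult2a2 among them, and 3 lower, Cyp3a41a, Cyp3a41b and Slc22a26. Of 19 male-biased genes Mup21 was higher (log2 2.58, SE 0.46), and Ugt2b38 and Cyp2u1, a fatty acid hydroxylase (log2 -1.23, SE 0.19), were lower. Mup21 lost its call without WT 9 days replicate 2 (edgeR adjusted p = 0.0666) and without Arid1a KO 9 days replicate 2 (edgeR adjusted p = 0.0750). Without the 30-day Arid1a KO replicate 1 library 5 female-biased genes were higher and 6 male-biased genes lower, and over the fits that left out 1 library 1 to 5 female-biased genes were higher and 0 to 4 lower and 2 to 6 male-biased genes lower. Cyp3a41b lost its call without WT 9 days replicate 2 (edgeR adjusted p = 0.0596), without WT 30 days replicate 1 (edgeR adjusted p = 0.0512) and without Arid1a KO 9 days replicate 2 (edgeR adjusted p = 0.0830). Sult2a2 lost its call without WT 9 days replicate 1 (edgeR adjusted p = 0.105), without WT 9 days replicate 2 (edgeR adjusted p = 0.114) and without Arid1a KO 9 days replicate 2 (edgeR adjusted p = 0.101). With DESeq2 Cyp3a41b was not called (adjusted p = 0.101). At 30 days Cyp3a41b stood at 0.267 and 0 CPM in the WT livers and at 0 in both Arid1a KO livers, so that its change, like that of Sult2a2, rests on 9 days. Mup21, the Cyp3a41 pair and Sult2a2 have near-identical copies.

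The remaining lists held 0 to 2 calls, where 2.27% of all genes tested were called higher and 1.96% lower. Of 22 unfolded protein response genes 2 were lower, Chac1, which degrades glutathione (log2 -3.58, SE 0.68), and Creld2 (log2 -0.79, SE 0.14), with 3 positive and a median log2 of -0.20. Of 23 acute phase genes Serpina3n was higher and Orm3 lower (log2 -3.04, SE 0.65), of 26 coagulation and complement genes C1s1 and C1ra (log2 0.54, SE 0.11) were higher, of 16 YAP and TAZ targets Ajuba was higher (log2 1.04, SE 0.19), and of 10 brush border and microvillus genes Cdhr2 was. The 10 urea cycle, 20 circadian clock and 22 glycolysis and gluconeogenesis genes had 0 calls with edgeR, 0, 2 and 5 at an unadjusted p under 0.05, and medians of 0.03, -0.23 and 0.02. DESeq2 called 0 in each of them. Of the coagulation and complement genes 4 were higher without the 30-day Arid1a KO replicate 1 library, 7 with DESeq2 and 0 to 4 over the fits that left out 1 library. Without that same library 1 coagulation and complement, 1 circadian clock and 1 glycolysis and gluconeogenesis gene were called lower, as was 1 gene each of the cholesterol and p53 lists. Chac1, Creld2, Orm3, C1ra and Ajuba each lost the call in 3 or more of the 8 fits that left out 1 library.

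**Figure D4:**
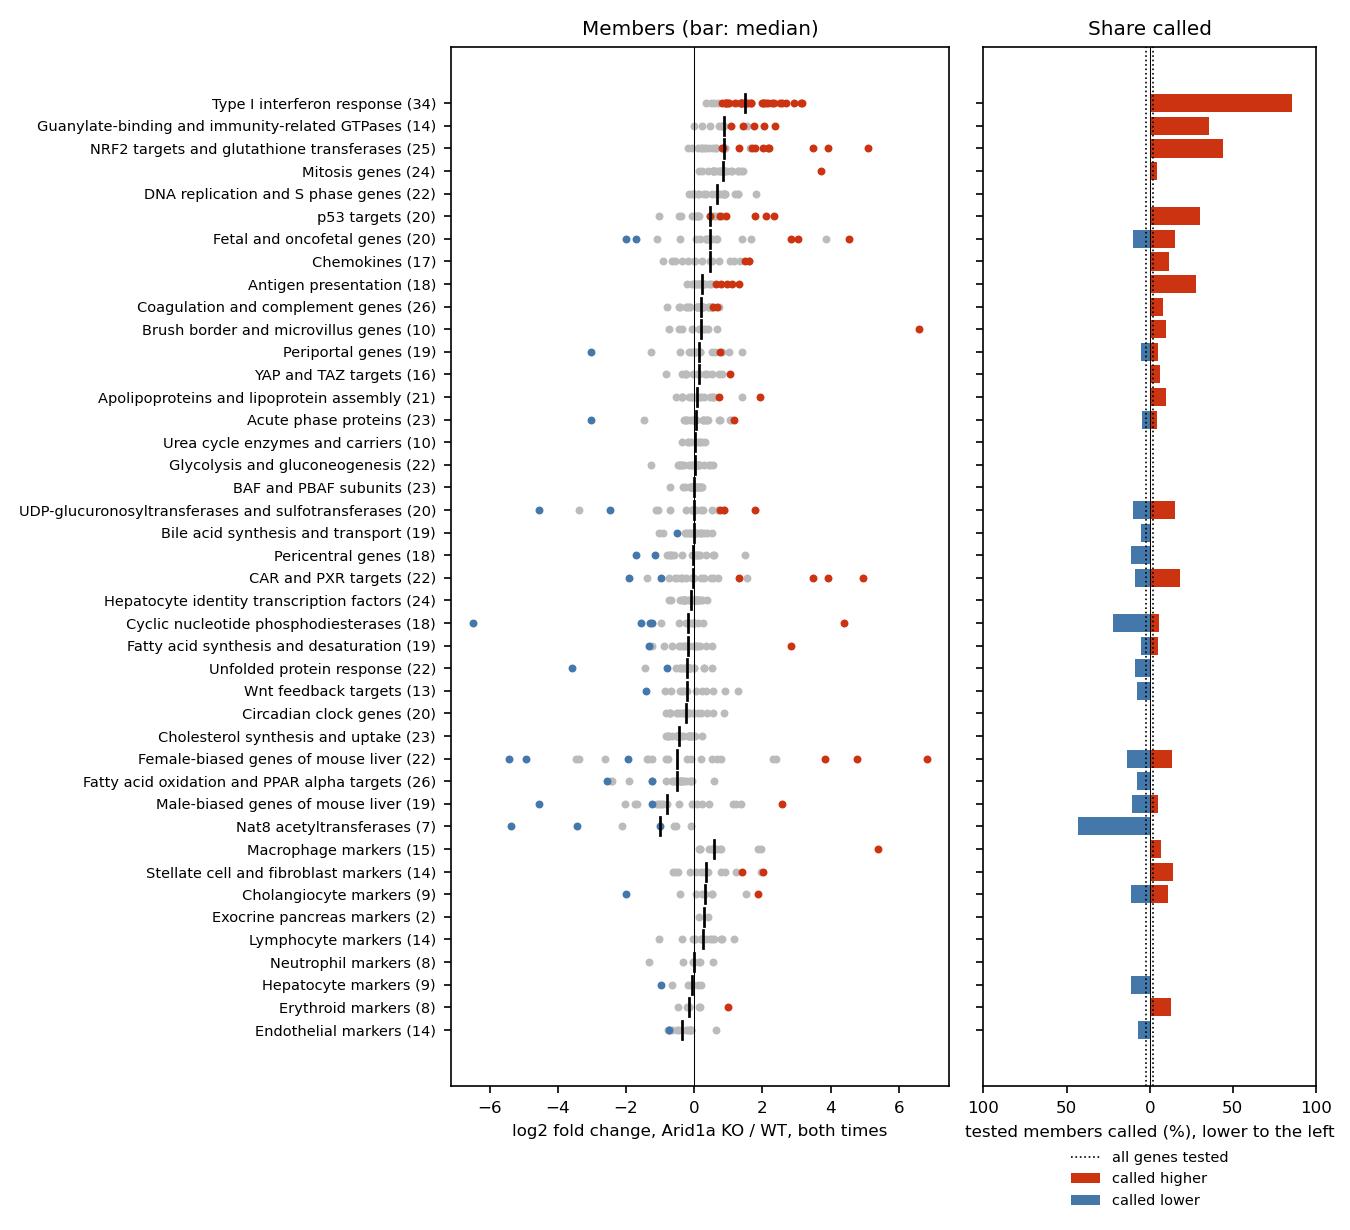
Left, log2 fold change of each tested member of the 42 gene lists (number tested in brackets), grey where not called, red where called higher and blue where called lower, with a bar at the median; cell type markers are the last 9 lists. Right, the percentage of tested members called higher (to the right) and lower (to the left), with dotted lines at the 2.27% and 1.96% of all genes tested.

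Markers of other liver cells moved little in number of calls, where 2.27% of all genes tested were called higher and 1.96% lower. All 15 macrophage markers were positive with a median log2 of 0.58 (0.28 at 9 days and 0.84 at 30 days), but Gpnmb was the only call, and their summed expression overlapped, 216 to 1650 CPM in WT and 642 to 2260 CPM in Arid1a KO. Of 14 stellate cell and fibroblast markers the fibrillar collagens Col1a1 (log2 2.003, SE 0.44) and Col3a1 (log2 1.41, SE 0.29) were called higher, with a median log2 of 0.35. In both the 30-day Arid1a KO replicate 1 library overlapped WT, and without it 5 of the markers were called higher and 1 lower. Col1a1 lost its call without any 1 of 6 libraries (all but Arid1a KO 30 days replicate 1 and Arid1a KO 30 days replicate 2), with an edgeR adjusted p of at most 0.128. Col3a1 lost its call without any 1 of 6 libraries (all but Arid1a KO 30 days replicate 1 and Arid1a KO 30 days replicate 2), with an edgeR adjusted p of at most 0.105. Of 14 endothelial markers 1 was positive and 1, the Fc receptor gene Fcgr2b, was called lower (log2 -0.73, SE 0.16), with a median log2 of -0.36. Of 9 cholangiocyte markers Ddit4l was higher (log2 1.88, SE 0.405) and Sox9 lower, with 7 positive and a median log2 of 0.31. Summed cholangiocyte markers were 120 to 145 CPM in WT and 178 to 375 CPM in Arid1a KO, without overlap. Of 9 hepatocyte markers Cyp3a11 was lower, and of 8 erythroid markers Alas2 was higher (log2 0.99, SE 0.22). Without the 30-day Arid1a KO replicate 1 library 3 endothelial markers were lower, 2 cholangiocyte markers higher and 0 erythroid markers higher. Fcgr2b, Ddit4l, Cyp3a11 and Alas2 each kept the call in at most 2 of the 8 fits that left out 1 library. The 14 lymphocyte, 8 neutrophil and 2 tested exocrine pancreas markers had 0 calls with edgeR, with 2, 0 and 0 at an unadjusted p under 0.05 and 0 with DESeq2. Summed lymphocyte markers were 17 to 54.3 CPM in WT and 21.3 to 70.6 CPM in Arid1a KO, and summed neutrophil markers 3.46 to 19.6 and 3.89 to 24 CPM. The part of these cells in the interferon, chemokine and collagen results was not tested.

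The same genes were measured in livers that share no library with the 8. These were 2 Arid1a KO and 2 WT livers of mice given an agonist of a receptor spelled NR1L3 in the study's description, and the titles of the WT pair say 9 days where their other labels say 30. Arid1a KO and WT differed there in 883 of 17831 genes (4.95%), 543 higher (3.05%) and 340 lower (1.91%). Of the genes called higher under vehicle 333 of 362 were positive under the agonist and 127 (35.1%) were called higher. Of those called lower 281 of 312 were negative and 100 (32.1%) were called lower. The shared calls made up 33.7% of the vehicle calls and 25.7% of the agonist calls. The median log2 under the agonist was 1.2 for the genes called higher and -1.17 for those called lower, against -0.005 for all genes.

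Individual genes kept their size in part. Cdhr2 (log2 7.71, SE 0.79, edgeR adjusted p = 0.001803), Rassf4 (log2 3.81, SE 0.42, edgeR adjusted p = 0.00213) and Pde9a (log2 -4.81, SE 0.55, edgeR adjusted p = 0.00219) were called again, as were Sdr9c7 (log2 -4.89, SE 0.61, edgeR adjusted p = 0.00336) and Isg15 (log2 2.48, SE 0.297, edgeR adjusted p = 0.00285). Ddah1 (log2 0.45), Me1 (0.697) and Sox9 (0.01), which fell under vehicle, had no negative value under the agonist. Slc4a9 (1.17), Pde6c (1.42) and Ccl9 (0.02) had smaller values than under vehicle. These differences between treatments were not tested. The interferon list had a median log2 of 1.89 under the agonist, the NRF2 and glutathione transferase list 1.32 and the Nat8 list -1.97. The genes called in the opposite direction were Acot2 (log2 -1.23 under vehicle and 2.37 under the agonist), Adgrf1 (1.26 and -4.52) and Alas2 (0.99 and -1.44).

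**Figure D5:**
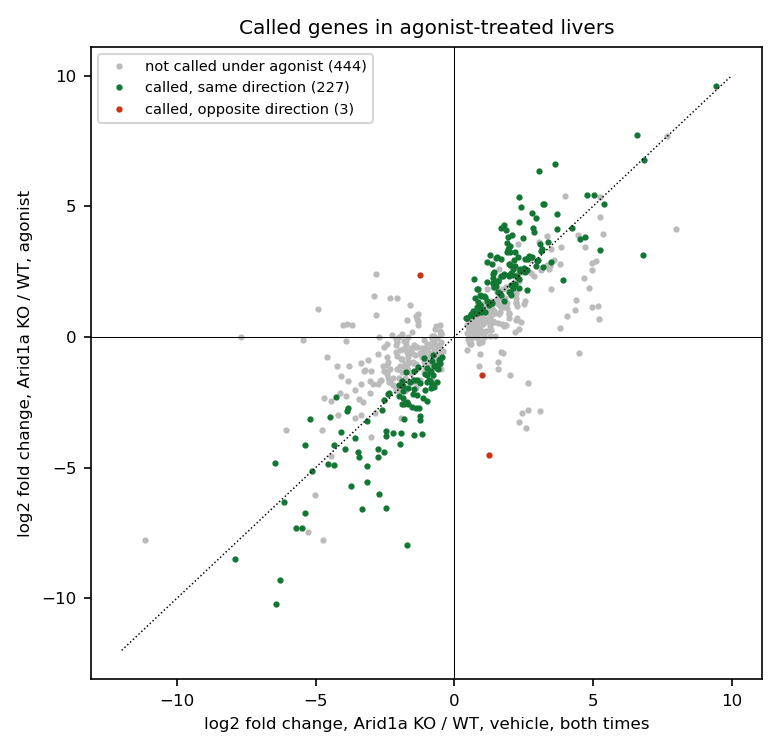
Log2 fold change of Arid1a KO over WT in vehicle livers of both times (horizontal) against agonist-treated livers (vertical) for the 674 genes called under vehicle, with 227 called in the same direction under the agonist in green, 3 in the opposite direction in red and 444 not called in grey. The dotted line marks equal change.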

How the data were processed

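Polyadenylated RNA of mouse liver was sequenced from TruSeq libraries, per the labels' protocols. The submitters' processing notes name fastp, STAR 2.7.3, featureCounts and GRCm38.p6. For the annotation release and the strand setting, nothing is given in the sources used here. The authors deposited counts of whole reads per gene. Their deposited normalized file holds signal values equal to those counts times 1 factor per library, which was checked on the file. The 8 vehicle libraries, with 10.3 to 30.8 M counts, were fitted with edgeR 4.0.16 under R 4.3.3 after filterByExpr and TMM, with terms for time and genotype (5 residual degrees of freedom). This left 15956 of 55291 genes. The contrasts at 9 days, at 30 days and under the agonist came from a fit of the 14 liver libraries with 7 residual degrees of freedom, and the difference between times from 4. The SE was derived from F, as the size of the log2 fold change over its square root.

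The members, the gene lists (33 of pathways, 9 of cell types) and the tests were chosen with earlier results of these data known, so a list's counts are a description. Genes were named by a rule. It took Arid1a and Arid1b. It took up to 15 called genes per direction with the largest change among those with a mean of at least 2 CPM and no overlap between genotypes. It took up to 8 per direction with the highest CPM, and up to 8 with the smallest p among genes called at neither time, again without overlap. Of each list it took up to 4 called members with the smallest p. Predicted genes and pseudogenes were left out of all but the lists. Other list members were named after their values were seen. Some genes that the rule took are not reported here.

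Samples with the same replicate number had correlated deviations between genotypes, 0.19 at 9 days and 0.27 at 30 days, and across the times 0.03 to 0.23, and the labels do not say what the number shares. As alternatives RLE scaling, no filter on low counts, DESeq2 1.42.0, limma-trend (limma 3.58.1) on log2 of the authors' normalized values plus 1, other designs, a replicate block and leaving out each library were tried. The fit without both 30-day replicate 1 livers and the fit of each time in the 8 vehicle libraries alone were added after the data were seen. Positions are from GENCODE M21, which matched 96.2% of symbols. The procedure was tested on simulated data with the depths of these 8 libraries, in 3 draws with 200 changed genes each. For changes of 2-fold it called 36.5% of genes, for 4-fold 76.3% and for 8-fold 92.4%, and 20 of 433 calls were false. The counts were drawn independently for each library from a negative binomial distribution. They had no effect of time, no library that stood apart and no correlation by replicate number. These rates therefore hold for such data and need not hold for the 8 livers. The square root of the common dispersion was 26.88%. Python 3.11.15 with matplotlib 3.10.9 drew the figures.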

Additional observations from a re-analysis of the deposited data

Results flagged for a closer look

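In 60 groups of 4 livers, formed by the genotype of each of the 30 leading genes over both times, the highest or lowest library stood apart in 7. The value is the gap to the nearest library divided by the range of the group, and all 7 are above Dixon's 95% limit for 4 values. For normally distributed values chance gives about 1 such group in 20, and CPM near 0 need not be so distributed. The Arid1a KO group of Obp2a, with all libraries at 0, has no range and could not stand out. Each group spans both times, so a difference between times can add to a gap.

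The 30-day Arid1a KO replicate 2 library was the highest of its group for Slc4a9 (0.901, at 37.8 CPM), Gpc1 (0.846, at 1.77 CPM) and Clic5 (0.831, at 38.7 CPM). The 30-day WT replicate 2 library was the highest of its group for Pde6c (0.855, at 3.08 CPM), Clic5 (0.85, at 2.96 CPM) and Htr1d (1.0, from its only count in WT). The 9-day Arid1a KO replicate 1 library was the highest for Serinc2 (0.837, at 1.60 CPM). The 30 genes were chosen without overlap between genotypes, so that no such library could reach the other genotype.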

How the results depend on the processing

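Of 362 genes higher and 312 lower, counts were 1121 and 946 with no low-count filter, 753 and 629 with DESeq2 and, for genes higher, 225 with no time block. Leaving out 1 library gave 137 to 538 higher and 127 to 471 lower. The counts higher and lower were 151 and 169 without WT 9 days replicate 1, 154 and 160 without its replicate 2, 170 and 204 without WT 30 days replicate 1, 189 and 181 without its replicate 2, 187 and 155 without Arid1a KO 9 days replicate 1, 137 and 127 without its replicate 2, and 237 and 230 without Arid1a KO 30 days replicate 2. Without Arid1a KO 30 days replicate 1 they were 538 and 471, and without both 30-day replicate 1 livers 367 and 353. All 674 genes kept their sign in every one of these alternatives that measured them. Of the 112 named genes that were called, 55 kept the call in all 8 fits without 1 library, 17 in 5 to 7, 38 in 1 to 4 and 2 (Abcb4 and Mdm2) in 0. Of the 112, 35 lost the call with no time block (Serpina3n, Gbp3 and Cyp2u1 among them), 18 with 4 group coefficients, 18 with 14 livers in the fit and 19 without both 30-day replicate 1 livers.

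With the replicate number as a block within time, 463 genes were higher and 402 lower, 597 of the 674 calls were shared, and 9 of the 112 named genes lost the call. The block changed no count by more than 1.5 times, with 132 genes at 9 days, 93 at 30 days, 1146 under the agonist and 0 for the difference between times.

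At 9 days the count of 101 was 1018 with no filter, 487 with DESeq2 and 17 to 33 without 1 library, and at 30 days the count of 92 was 942, 421 and 1 to 177. In the 8 vehicle libraries alone these counts were 56 and 36. Under the agonist 883 became 2468, 1855 and 74 to 471, and the difference between times went from 0 to 184 with no filter and 7 with DESeq2. The cause of these shifts was not tested. The near-zero values of Arid1a and Arid1b changed sign, with a log2 of -0.0219 to 0.1463 and -0.2422 to 0.0933 without 1 library. With edgeR at these depths 36.5% of simulated 2-fold changes were called.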

Other observations

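The interferon ligand genes themselves were close to undetected. This set was chosen after the values of the interferon response genes were seen. Of 21 genes of interferon alpha, beta, epsilon, kappa, lambda and gamma 16 had 0 counts in all 8 livers, and the other 5 had 10 counts in WT and 18 in Arid1a KO together. Ifnb1 had 0 counts in WT and 3 in Arid1a KO. Of 12 genes of interferon receptors, their kinases and nucleic acid sensing looked at in the same way, 10 were tested and edgeR called 0. Of all genes tested 4.22% were called. Tmem173 and Mb21d1 were the genes of this set not tested. The RNA sensors Ddx58, Ifih1 and Dhx58, called higher in the interferon response list, were not part of the set. Ifnar2, a subunit of the type I receptor, averaged 65.3 CPM over the WT livers and 89.98 CPM over the Arid1a KO livers (log2 0.46, edgeR adjusted p = 0.156).

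Called genes were more frequent on some chromosomes than on others, given here as a description. On chromosome 17 36 genes were higher and 16 lower of 747 tested (6.96%), against 4.22% over all chromosomes. The interval from H2-K1 to H2-T23 (chromosome 17, 33996017 to 36032855, GRCm38) held 105 tested genes, of which 10 were higher and 0 lower (9.52%). These were Psmb9, Tap1, Psmb8, Tap2, Neu1, Apom, H2-Q4, H2-Q6, H2-T24 and H2-T23. The H2-Q and H2-T genes have near-identical copies. Around Arid1a on chromosome 4 the share called was highest among the nearest genes. Within 1 Mb on each side 6 of 44 tested were called (13.6%), within 5 Mb 8.70%, within 10 Mb 6.39% and within 20 Mb 6.65%. Of the 6 in the nearest window, chosen after their values were seen, Cep85 stood at 199, 122, 160.3 and 118 CPM in the WT livers and at 44.1, 60.3, 56.1 and 54.4 CPM in the Arid1a KO livers (log2 -1.48, edgeR adjusted p = 0.00617). Sytl1 (log2 -1.53), Sfn (log2 -2.08) and Kdf1 (log2 -0.99) were lower as well, and Cnksr1 (log2 2.17) was higher. Cep85 and Sytl1 had log2 values of -2.20 and -2.70 in the agonist-treated livers. Whether DNA linked to the modified allele differs between the genotypes is not given in the sources used here, and its part was not tested.

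By annotated type, 591 of 13256 protein-coding genes (4.46%), 21 of 403 lincRNAs (5.21%) and 15 of 543 processed pseudogenes (2.76%) were called.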
